A study of Mus musculus with 15 samples.

Results

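Small RNA of testes that lacked both copies of a piRNA locus on chromosome 18 (Chr18-/-, homozygous) was compared with small RNA of testes that lacked 1 copy (Chr18+/-, heterozygous). The members were the 6 libraries with a small RNA title among the 15 libraries of the series, 3 for each genotype, and all 49585 annotated genes counted in them entered the comparison. Both groups came from testis of B6D2F1 mice at postnatal day 28, and both were made from total RNA treated with periodate and then β-eliminated. That treatment blocks RNAs with a free 3′ end and is meant to leave mainly RNAs with a 2′-O-methylated 3′ end. How complete it was in these libraries was not checked. No wild-type small RNA library is among these samples, so the heterozygous controls themselves carried 1 disrupted copy. The labels do not say how the locus was disrupted, nor whether the libraries of a group came from separate animals. The p-values therefore measure the spread between these libraries, which may be technical.

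Piwi-interacting RNAs (piRNAs) are small RNAs of animal germ cells that guide PIWI proteins to complementary RNA. Pachytene piRNAs are the abundant class of meiotic spermatocytes and round spermatids. They are cut from long single-stranded precursor transcripts of a limited number of genomic loci, and the methyltransferase HENMT1 then methylates their 3′ ends. MicroRNAs of mammals are not methylated in this way and are largely lost in periodate treatment. PIWI proteins also act on messenger RNAs: a cut made by a piRNA can give rise to further small RNAs from the cut transcript.

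The deposited values are raw read counts over the exons of each gene on its sense strand, and all levels below are counts scaled to a common library size (CPM). The 3 heterozygous libraries held 1861402, 939641 and 1161653 counted reads, and the 3 homozygous libraries held 1446726, 1275655 and 1122409. Between 11590 and 13770 genes had at least 1 read in a library, 18574 had a read in any of them, and 3581 had enough reads to be tested. Markers of the tissue were checked in the long RNA libraries of the same genotypes, where all 7 germ cell markers were present. The summed germ cell level was 3084 to 5848 CPM in heterozygotes and 4184 to 5701 CPM in homozygotes, against 0.0915 to 0.275 CPM and 0.0699 to 0.283 CPM for 4 epididymis markers, 1 of which was at 0. No gene of the small RNA table lies on the same strand as the 2 divergent precursors of the disrupted locus, so the genotype labels of the small RNA libraries could not be checked at the locus itself.

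Heterozygous libraries 2 and 3 stood apart from the other 4 libraries. Across genes, the log CPM of heterozygous library 1 correlated with the 3 homozygous libraries at r = 0.963 to 0.968, but with heterozygous libraries 2 and 3 at r = 0.876 and 0.893. Heterozygous libraries 2 and 3 correlated with each other at r = 0.963. These values describe the libraries across genes that share depth and scaling, and genes are not independent replicates. The difference was visible in non-coding RNAs that are not piRNAs. Small nucleolar and Cajal body RNAs (snoRNA and scaRNA), which guide chemical modification of ribosomal and spliceosomal RNA, took 5.29% of the reads in heterozygous library 1 and 0.698% and 0.846% in libraries 2 and 3. In the homozygous libraries they took 2.76%, 2.96% and 3.50%, between those extremes. Mitochondrial tRNAs and rRNAs took 1.40%, 0.170% and 0.228% of the heterozygous reads and 1.20%, 0.999% and 1.46% of the homozygous reads. Results that rest on this division are given with and without these libraries, and the part of the division in the other results was not tested.

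The miRNA genes with most reads are shown first, because the small RNAs counted on them illustrate what survived the periodate treatment. Of the 12 miRNA genes with the highest mean level, 11 lay wholly within an annotated piRNA precursor on the same strand, the exception being the gene with the symbol Snord43. The 5 highest were Mir7217 (chr17:27355738-27355799, plus strand), Mir7230 (chr5:113337590-113337645, minus strand), Mir468 (chr6:81896599-81896676, minus strand), Mir7241 (chr9:67727717-67727780, minus strand) and Mir7214 (chr17:27317035-27317095, minus strand), all matched in RefSeq for GRCm38.p6. Their annotated mature sequences follow, with the seed (bases 2 to 8) in capitals.
mmu-miR-7217-5p: aACUUGUAucuugugagacagaagg
mmu-miR-7217-3p: uGAGAACCcacaagcaagaaga
mmu-miR-7230-5p: aGACUGCUguuucucugaguggc
mmu-miR-7230-3p: uUGAGUUGagacugucaguaggu
mmu-miR-468-5p: gACUGAUGuacugauaagaaacucagu
mmu-miR-7241-5p: aCUUGCAUgaguuaauacccacc
mmu-miR-7214-3p: cUCAGUCCugaccccuugagcgca

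No seed was shared among these mature sequences. The deposited counts give no read lengths or positions, so a read counted on one of these genes cannot be assigned to its annotated mature RNA rather than to another small RNA of the precursor that spans it. Mir7217 had 8660, 7363 and 9427 CPM in the heterozygous libraries and 9011, 12400 and 11900 CPM in the homozygous libraries, with overlapping groups. Mir7230 had 7049, 7863 and 8170 CPM against 5068, 6728 and 6601 CPM, with all homozygous values below all heterozygous ones. Mir468 had 3610, 3244 and 3168 CPM against 4441, 3827 and 4432 CPM, with all homozygous values above. Mir7241 had 2503, 4045 and 4069 CPM in heterozygotes and 2045, 2413 and 2300 CPM in homozygotes. Its log2 fold change was -0.65 (SE 0.20, n = 3 per group), with an edgeR adjusted p of 0.557. Without heterozygous libraries 2 and 3 it was -0.14, and without heterozygous library 1 it was -0.85. For Mir7214 the levels were 1945 ± 447 CPM and 2302 ± 201 CPM (SD, n = 3). None of the 23 miRNA genes tested passed an adjusted p of 0.05, while without heterozygous library 1 12 of 25 were called higher and 5 lower, in a run that called 9.26% of all genes higher and 6.83% lower. The 16 that overlap a precursor had a median log2 fold change of 0.18 and the 7 others one of 0.42, against -0.01 over all genes tested.

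Of a list of testis-rich and common miRNA genes, few had enough reads. Of all 2202 annotated miRNA genes, 23 were tested. Only 2 of 43 listed miRNA genes, Mir34b and Mir34c which belong to a family needed for sperm formation, had enough reads to be tested. Mir34b had 103, 16 and 15 reads in heterozygotes and 78, 50 and 52 in homozygotes. Mir34c had 35, 2 and 3 reads against 13, 20 and 14. In both, heterozygous libraries 2 and 3 were lowest and heterozygous library 1 highest, as was so for the snoRNA share.

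Most counted small RNA reads fell on genes that overlap piRNA precursors in both genotypes. Reads outside the annotated exons are not in these counts, so the shares are not shares of all small RNA. They also leave out the precursors of the disrupted locus. The 244 genes that overlap an annotated precursor on the same strand took 77.1%, 82.5% and 82.3% of the heterozygous reads and 79.6%, 80.5% and 79.1% of the homozygous reads. The means were 80.6% ± 3.06 and 79.7% ± 0.726 (SD, n = 3), a difference smaller than the heterozygous spread (exact two-sided permutation p = 0.7, adjusted p of at least 0.875 in each of the 10 classes compared). With 3 libraries per group the smallest p this test can give is 0.1. Against heterozygous library 1 alone, the homozygous mean differed by 2.61 percentage points, and against libraries 2 and 3 alone by -2.69 points. Long noncoding genes took 57.4% to 61.5% of the reads in heterozygotes and 57.5% to 59.1% in homozygotes (exact permutation p = 0.4). Protein-coding genes took 31.5% to 33.4% and 32.4% to 34.2% (exact permutation p = 0.6). The share of miRNA genes was 3.13%, 3.28% and 3.49% in heterozygotes and 3.21%, 3.39% and 3.45% in homozygotes. For snoRNAs and mitochondrial RNAs the exact permutation p was 0.6 and 0.3.

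**Figure D1:**
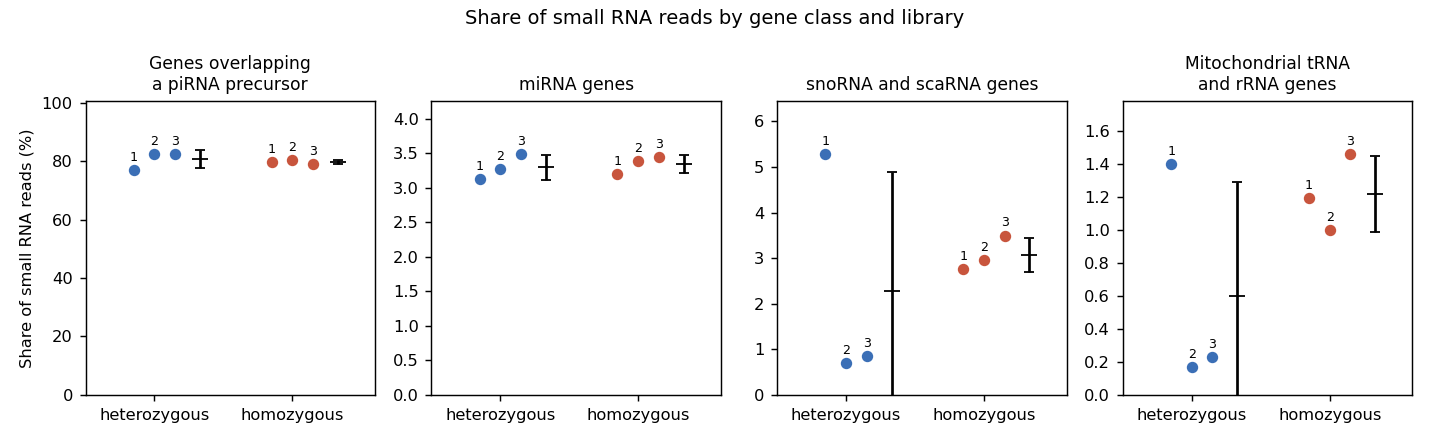
Share of counted small RNA reads (%, each vertical axis starting at 0) that fell on 4 classes of genes. There is 1 numbered point per library, with the mean and SD (n = 3) beside them. The SD bars of the heterozygous snoRNA and mitochondrial shares are cut at 0. Precursor genes held 77.1% to 82.5% of the reads in all 6 libraries, while heterozygous libraries 2 and 3 had snoRNA shares of 0.698% and 0.846% against 2.76% to 5.29% in the other 4.

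The reads were concentrated on few genes. A single long noncoding gene, Gm21269 (chr7:73816546-73838898, plus strand, 99.6% of its exons inside a precursor), took 11.6% to 14.9% of the reads of a library. The 10 genes with most reads took 40.9% to 44.4%, and all 10 overlap a precursor. All of the first 25 genes do so as well, with 61.8% to 66.4% of the reads, and 48 of the first 50. Gm21269 had 131900, 131500 and 141800 CPM in heterozygotes and 113900, 136100 and 140400 CPM in homozygotes, so the groups overlapped. Gm10619 (chr7:73781429-73816503, minus strand), which lies next to it on the other strand, had 46140 ± 6532 CPM and 52370 ± 3201 CPM (SD, n = 3). Beside long noncoding genes, the 10 included 1 protein-coding gene, Cbl (chr9:44142976-44234049, minus strand), which encodes an E3 ubiquitin ligase. Cbl had 24460, 19510 and 18470 CPM in heterozygotes and 22860, 24860 and 25760 CPM in homozygotes. Its log2 fold change of 0.24 (SE 0.14) did not pass (edgeR adjusted p = 0.62), and it was 0.37 without heterozygous library 1 (adjusted p = 0.00257) and 0.01 without heterozygous libraries 2 and 3. The log2 fold changes of these 10 genes lay between -0.19 and 0.24, and none passed the test. Without heterozygous library 1, Gm10619 and 4933440M02Rik were called higher and 1700042G15Rik lower, by at most 0.29 on the log2 scale. That run, in which Cbl passed too, called 9.26% of all genes higher and 6.83% lower.

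**Figure D2:**
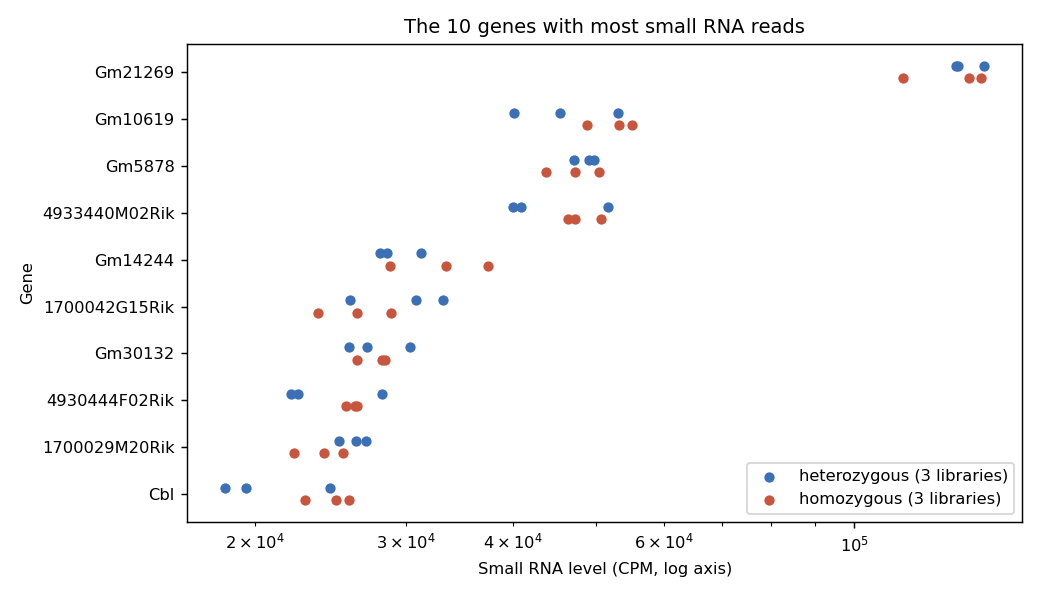
Small RNA level (CPM, log axis) of the 10 genes with most reads, 1 point per library, heterozygous libraries drawn above homozygous ones. The points of the 2 genotypes overlap for each of the 10 genes, from Gm21269 at 113900 to 141800 CPM down to Cbl at 18470 to 25760 CPM.

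Between genotypes, 1 of 3581 genes passed the edgeR quasi-likelihood test at a Benjamini-Hochberg adjusted p of 0.05, which is 0.0279% of the genes tested. It was Unc119b, which fell in homozygotes. No gene rose at that threshold, while 138 genes were higher at an unadjusted p under 0.05 (3.85%) and 174 were lower (4.86%). DESeq2 also passed 1 gene, Unc119b, and none in the higher direction. The 2 groups did not overlap for 570 genes, or 15.9%, of which 269 (7.51% of genes tested) were lower and 301 (8.41%) higher in homozygotes. Over all genes the median log2 fold change was -0.01, and the values ran from -2.54 for Unc119b to 2.00 for Gpd2. Gpd2, the mitochondrial glycerol-3-phosphate dehydrogenase, had means of 7.40 and 28.8 CPM and did not pass (edgeR adjusted p = 0.387). The number of genes past the threshold depended on which heterozygous libraries were used. It was 617 without heterozygous library 1, with 355 higher (9.26%) and 262 lower (6.83%), and 67 without libraries 2 and 3, with 4 higher (0.0865%) and 63 lower (1.36%). With no filter on low counts and all libraries it was 43, among the 18574 genes with a read. It was 0 without homozygous library 2 and without homozygous library 3, in which Unc119b missed the threshold (adjusted p = 0.13 and 0.0619).

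**Figure D3:**
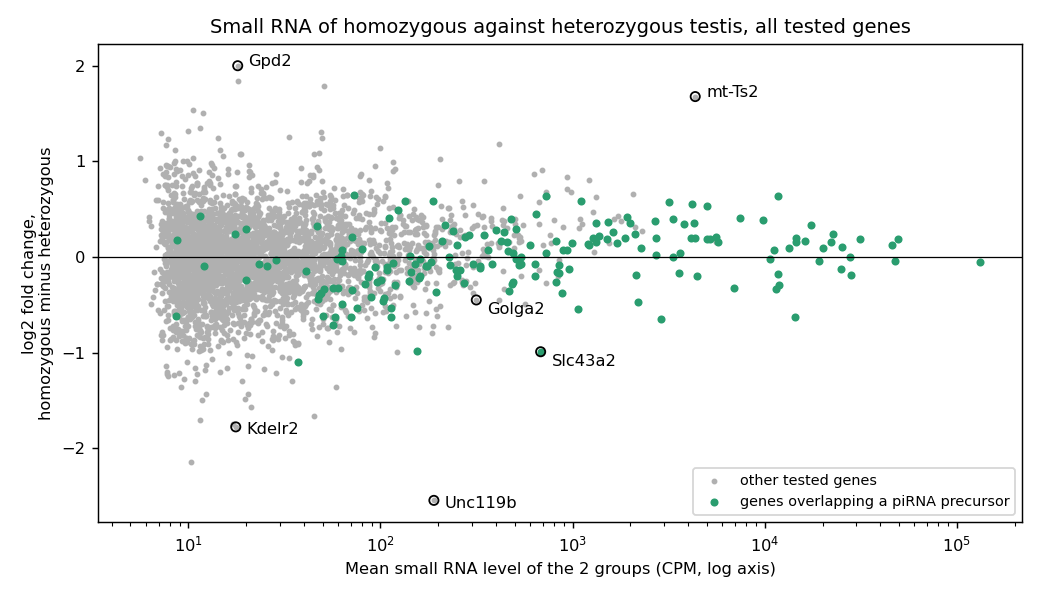
Log2 fold change of small RNA (homozygous minus heterozygous) against the mean level of the 2 groups (CPM, log axis) for the 3581 genes tested, with genes that overlap a piRNA precursor in green. Unc119b lies apart at -2.54, and the precursor genes lie between -1.09 and 0.64.

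Unc119b (ENSMUSG00000046562, chr5:115122550-115134975, minus strand) encodes a lipid-binding chaperone that carries myristoylated proteins to membranes and cilia. It overlaps no annotated piRNA precursor. In the heterozygous libraries it had 491, 369 and 374 reads, or 291, 374 and 307 CPM. In the homozygous libraries it had 100, 63 and 46 reads, or 68.1, 53.3 and 44.4 CPM. The groups were far apart, and the homozygous mean was 17.1% of the heterozygous one. The means were 324 ± 44.1 CPM and 55.3 ± 11.95 CPM (SD, n = 3), a log2 fold change of -2.54 (SE 0.22, edgeR adjusted p = 0.00538). The fall was as large against either kind of heterozygous library: -2.60 without library 1 (adjusted p = 1.125e-13) and -2.37 without libraries 2 and 3 (adjusted p = 5.801e-08). Over the runs that left out 1 library at a time it lay between -2.72 and -2.42. The long RNA of Unc119b, from other libraries of the same genotypes, was not lower in homozygotes. Its gene body had 17.1, 16.6 and 13.7 CPM in heterozygotes and 18.4, 18.8 and 17.3 CPM in homozygotes, with all homozygous values above all heterozygous ones. That difference, 0.20 on the log2 scale (SE 0.11), did not pass (edgeR adjusted p = 1.00). In the long RNA comparison 6 of 20782 features passed, or 0.0289%.

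A stretch of Unc119b is closely complementary to a transcript of the disrupted locus. The annotated transcripts (GENCODE M21, GRCm38) of all tested genes were aligned in antisense to those inside the 2 precursors of the locus. The genomic spans of the latter, any introns included, cover the whole of the plus-strand precursor (17793 bases). They cover only 5.6% of the minus-strand one (2073 of 37015 bases). The aligned sequences were spliced transcripts, so complementarity to introns and to most of the minus-strand precursor was not examined. Positions 2290 to 3646 of the 3659-base Unc119b transcript, at chr5:115122563-115123919, aligned to the plus-strand transcript over 1377 columns with 95.3% identity. The stretch lies wholly in the 3′ UTR and makes up 37.1% of the transcript. The longest run without a mismatch was 153 bases. The alignment had a bit score of 2194, against 765 for the next gene, Noct, with 1245 columns at 73.7% identity. Noct, a circadian phosphatase related to deadenylases, overlaps a precursor of its own and had means of 21.8 and 18.1 CPM and a log2 fold change of -0.24. The counts used here are of the sense strand of Unc119b, whereas reads of the plus-strand precursor itself would align there in antisense. How strictly the libraries keep the strand was not checked. Whether the fall of Unc119b is tied to this stretch was not tested. Reads within a stretch shared by several places can align to each, and how such reads were handled in the alignment is not given in the sources used here.

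Many tested genes had some antisense alignment to the locus, most of it short. Of 3578 tested genes with a transcript sequence, 1096 (30.6%) had an alignment at an e-value under 1e-05, 749 of them over at least 100 bases, with a median length of 130 and a shortest of 27. Of the 1096, 520 were lower and 576 higher in homozygotes, with a median log2 fold change of 0.02, and 79 (7.21%) had an unadjusted p under 0.05, against 8.71% of all genes tested. Exact complementary runs of 18 or more bases were found in 770 genes (21.5%). Rbbp4, which encodes a histone-binding protein, had a run of 34 bases and means of 31.8 and 10.8 CPM, a log2 fold change of -1.57 (SE 0.34) that did not pass (edgeR adjusted p = 0.557). Of the 86 genes with a run at least as long, 39 were lower and 47 higher. Zbtb8os and Nom1 came next by bit score, at 709 and 708, with log2 fold changes of -0.28 and 0.17.

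**Figure D4:**
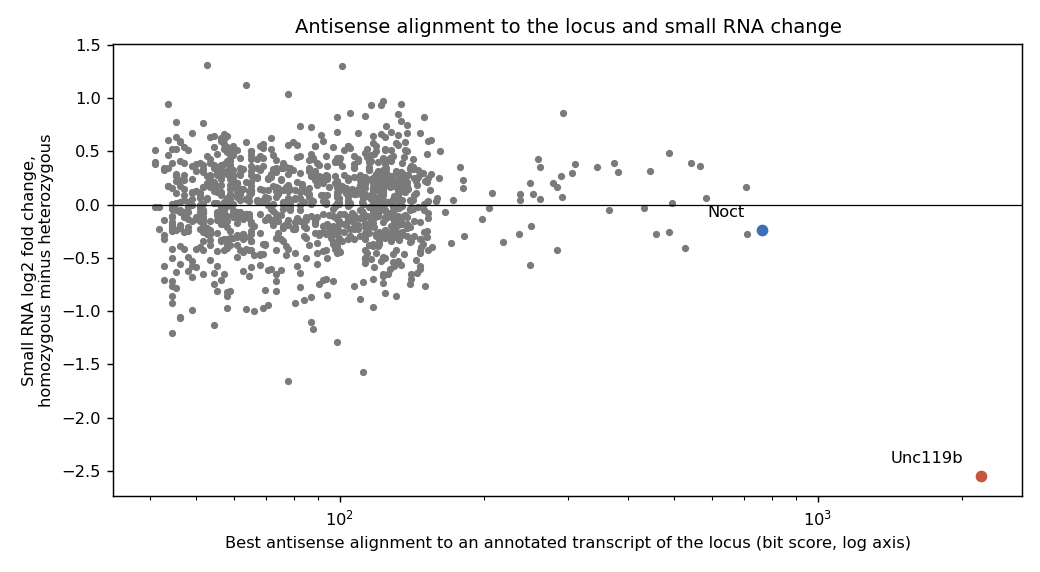
Small RNA log2 fold change (homozygous minus heterozygous) against the bit score (log axis) of the best antisense alignment to an annotated transcript of the locus, for the 1096 tested genes with an alignment. Unc119b stands alone at a bit score of 2194 and a log2 fold change of -2.54, and Noct, next at 765, lies at -0.24.

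The other genes examined for lower small RNA did not pass the test with all libraries after the filter on low counts. Without that filter, Kdelr2 (-1.73, edgeR adjusted p = 0.000719) and Slc43a2 (-0.95, edgeR adjusted p = 0.00683) passed. The unfiltered run also passed mt-Ts2 (edgeR adjusted p = 3.072e-20), whose groups overlap. The SE of mt-Ts2 was 0.17 there and 1.05 with the filter, so that run can understate the spread between libraries. Kdelr2 had too few reads for the choice by lowest p and was included by name. Kdelr2 (ENSMUSG00000079111, chr5:143403838-143421901, plus strand), a KDEL receptor that returns escaped endoplasmic reticulum proteins from the Golgi, had 42, 29 and 34 reads in heterozygotes and 10, 12 and 7 in homozygotes. The groups did not overlap, at 27.4 ± 2.29 and 7.91 ± 1.95 CPM (SD, n = 3), with a log2 fold change of -1.78 (SE 0.26, edgeR adjusted p = 0.184). It passed at -1.85 without heterozygous library 1 (edgeR adjusted p = 5.966e-05), in a run that called 6.83% of all genes lower. Without heterozygous libraries 2 and 3 the value was -1.64. Its long RNA was 52.0 ± 1.62 and 55.5 ± 0.616 CPM. No run of 18 or more bases complementary to the annotated locus transcripts was found in Kdelr2, but most of the minus-strand precursor was not searched. Slc43a2 (chr11:75531694-75577575, plus strand), a transporter of neutral amino acids, has 99.7% of its exonic length inside a piRNA precursor. It had 1393, 857 and 1251 reads in heterozygotes and 663, 560 and 460 in homozygotes, or 827, 869 and 1026 CPM against 451, 474 and 444 CPM. Each homozygous library was near one level, and all lay below the heterozygous ones. The log2 fold change was -0.99 (SE 0.15, edgeR adjusted p = 0.188). Slc43a2 passed at -1.05 in the same run without heterozygous library 1 (edgeR adjusted p = 1.213e-07). Without heterozygous libraries 2 and 3 the value was -0.85. Its long RNA cannot be read, since fragments in features that overlap on a strand were not counted and both the gene and its precursors are listed at 0.

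Rfx2, a transcription factor of ciliary genes in spermatids, had 63, 48 and 60 reads against 30, 25 and 24. Its levels were 45.1 ± 6.69 and 21.6 ± 1.42 CPM, with a log2 fold change of -1.06 (SE 0.20, edgeR adjusted p = 0.387), and its long RNA was 152 ± 11.8 and 159 ± 12.6 CPM. Smg9, a subunit of the SMG1 kinase complex of nonsense-mediated decay, had 102, 95 and 111 reads against 55, 52 and 47. Gpat4, which makes lysophosphatidic acid in the endoplasmic reticulum, had 50, 41 and 66 reads against 31, 24 and 19. The log2 fold changes of Smg9 and Gpat4 were -0.96 and -1.05, and without heterozygous libraries 2 and 3 they were -0.52 and -0.56. The remaining genes chosen by lowest p were Mfsd14a (-0.76), a transporter-like membrane protein, Ap2a1 (-0.74), a subunit of the AP-2 clathrin adaptor, Plekha5 (-0.74), Ccdc88c (-0.63) and Tacc1 (-0.55), a centrosomal coiled-coil protein with 95.0% of its exons in a precursor. In each of these 5 the groups did not overlap and the adjusted p was 0.557. Of the 10 lowest genes in this ranking, Unc119b included, 2 overlap a precursor, Slc43a2 and Tacc1. Over all genes tested the share was 5.11%, but the ranking took only genes with a mean of at least 50 reads in the higher group. The share among such genes was not computed.

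Among the genes chosen for the lowest p in the higher direction, none passed with the filter on low counts. Without it, Sec62 (1.31, edgeR adjusted p = 0.00257) and 4930465K10Rik (0.95, edgeR adjusted p = 0.0485) passed. That unfiltered run also passed mt-Ts2, whose groups overlap and which had an edgeR adjusted p of 0.631 with the filter. The pseudogene 4930465K10Rik had 153, 83 and 84 reads in heterozygotes and 223, 182 and 156 in homozygotes, or 81.3 ± 11.2 and 152 ± 1.72 CPM (SD, n = 3). Its log2 fold change was 0.90 (SE 0.17, edgeR adjusted p = 0.387). Sec62, a channel partner in protein entry to the endoplasmic reticulum, had 53, 13 and 16 reads against 74, 61 and 43, a log2 fold change of 1.26. Heterozygous library 1 lay closer to the homozygous libraries than to its own group, and without heterozygous libraries 2 and 3 the value was 0.62. Rc3h1, which encodes the RNA-binding protein Roquin-1 and lies wholly in a precursor, had 1839, 774 and 950 reads against 1862, 1556 and 1455. Its levels were 885 ± 178 and 1330 ± 69.6 CPM, a log2 fold change of 0.59, and 0.29 without heterozygous libraries 2 and 3. The others were Cipc (0.85), a partner of the CLOCK protein, Gm23098 (0.85), 1700020I14Rik (0.80), Ccdc87 (0.78), Zbtb26 (0.59), Spats1 (0.54) and Slc4a8 (0.53), a bicarbonate transporter, each with an adjusted p of 0.557. Without heterozygous library 1, all genes chosen by lowest p in either direction passed except Plekha5, at -0.6 (edgeR adjusted p = 0.0526). Plekha5 was at -0.98 without heterozygous libraries 2 and 3. The run without heterozygous library 1 called 9.26% of all genes higher and 6.83% lower. It reuses the libraries by which these genes were chosen, so passing there is not independent support.

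Golga2 encodes GM130, a scaffold protein of the cis-Golgi, the organelle that gives rise to the acrosome. Its small RNA was 349, 344 and 400 CPM in heterozygotes and 241, 267 and 292 CPM in homozygotes, so the groups did not overlap. The means were 364 ± 30.8 and 267 ± 25.3 CPM (SD, n = 3), and the log2 fold change of -0.45 (SE 0.16) did not pass (edgeR adjusted p = 0.557). Its long RNA was on the other side: 62.6, 58.9 and 51.7 CPM in heterozygotes and 93.8, 81.9 and 75.4 CPM in homozygotes, also without overlap. That difference of 0.53 (SE 0.11) did not pass either (edgeR adjusted p = 0.643), but passed with DESeq2 (adjusted p = 0.0254). No run of 18 or more bases complementary to the annotated locus transcripts was found in Golga2, but most of the minus-strand precursor was not searched. Without heterozygous library 1, the small RNA of Golga2 passed at -0.48 (edgeR adjusted p = 0.0206), in a run that called 6.83% of all genes lower. Without heterozygous libraries 2 and 3 the value was -0.38.

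**Figure D5:**
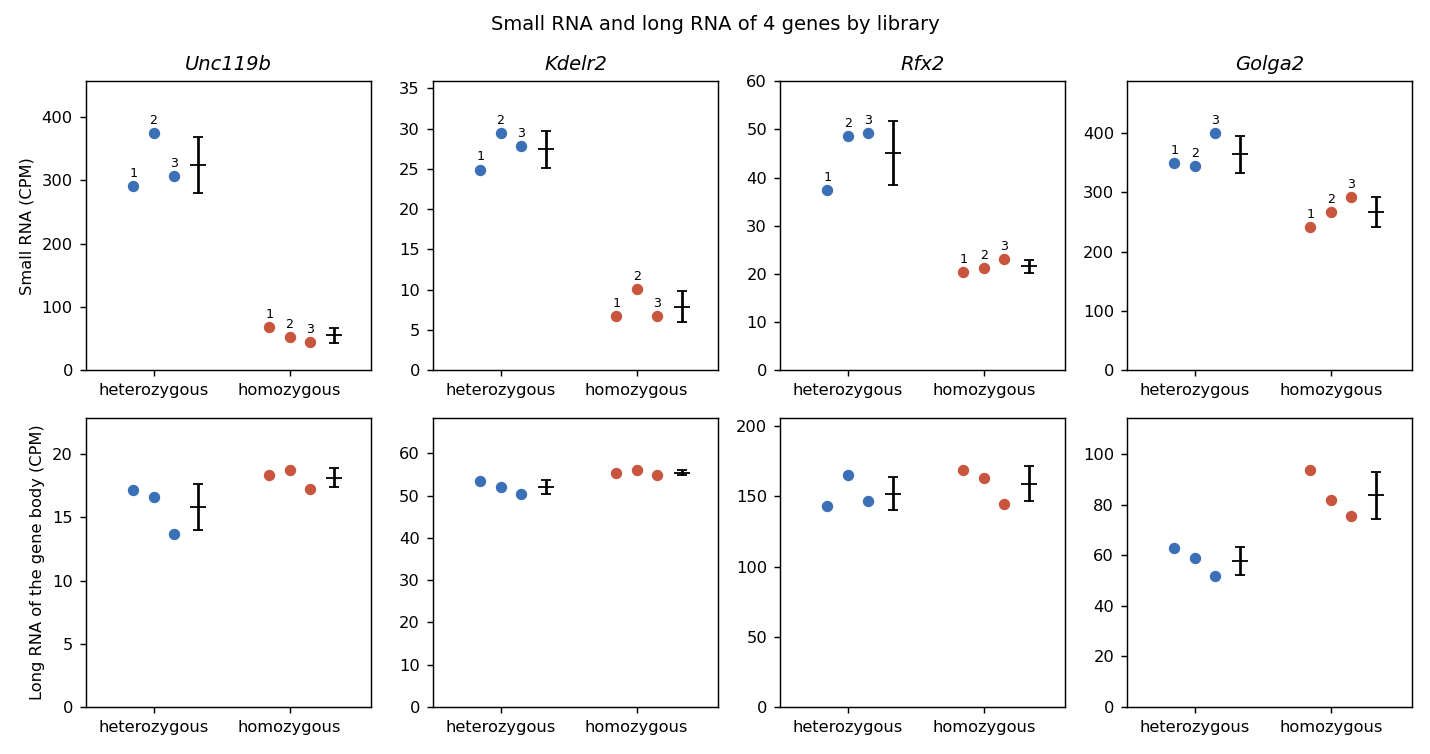
Small RNA (upper row, CPM) and long RNA of the gene body (lower row, CPM) of 4 genes, 1 point per library with the mean and SD (n = 3); small and long RNA come from separate libraries, and every axis starts at 0. Small RNA of all 4 genes lies lower in homozygotes without overlap, passing the test only for Unc119b, while the mean of their long RNA is not lower.

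The 3 features whose long RNA rose past the threshold in homozygotes, Gm9, Tmem184c and Map7d3, had almost no small RNA. Gm9 had 2, 0 and 1 small RNA reads in heterozygotes and 1, 0 and 1 in homozygotes, Tmem184c had 4, 0 and 3 against 2, 2 and 4, and Map7d3 had 1, 0 and 0 against 0, 0 and 1. No small RNA change could be tested in them at this depth. In long RNA they rose by 2.16, 1.51 and 0.98 on the log2 scale (edgeR adjusted p = 4.842e-07, 5.394e-05 and 0.0129). The call of Map7d3 was lost without heterozygous library 1 or 2 or homozygous library 1 or 3 of the long RNA, at 0.91 to 0.97 (adjusted p = 0.0732 to 0.137).

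Genes of the machinery that makes piRNAs did not pass the test in small RNA. Of 34 listed piRNA pathway genes, 15 were tested, and 9 were higher and 6 lower, with a median log2 fold change of 0.00. Piwil2, which encodes the PIWI protein MILI, was the member with most reads, at 562, 833 and 718 CPM in heterozygotes and 602, 708 and 605 CPM in homozygotes. Piwil1, the PIWI protein MIWI that binds pachytene piRNAs, had 32.1 ± 6.75 and 32.3 ± 8.43 CPM. Mov10l1, the helicase that feeds precursors into processing, had 28.2 ± 6.15 and 29.0 ± 1.65 CPM, and Tdrd1, a Tudor protein of the intermitochondrial cement, had 54.6 ± 5.42 and 62.3 ± 3.88 CPM. Mybl1, the transcription factor of pachytene precursors, had 6 to 15 reads per library and was not tested.

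Transport and organelle genes were described by lists. Of 55 genes of COPI, COPII and KDEL receptor transport, 23 were tested, 17 of them lower and 6 higher, with a median of -0.18. None passed, 4 had an unadjusted p under 0.05 and 7 had groups without overlap, where all genes tested gave 1824 lower, 1757 higher, 8.71% under that p and 15.9% without overlap. Without heterozygous library 1, 4 members were called lower and none higher, in a run that called 6.83% of all genes lower and 9.26% higher. The median of the list was -0.26 in that run and -0.17 without libraries 2 and 3. Kdelr2 was the lowest, and Arfgap2, a GTPase-activating protein of the COPI coat, had 344 ± 13.1 and 266 ± 30.4 CPM, a log2 fold change of -0.37 (edgeR adjusted p = 0.557). Among 40 Golgi matrix and golgin genes, 17 were tested, with 9 lower, 8 higher, a median of -0.02 and none past the threshold. Gorab, a golgin-binding protein, was lowest at -1.22, with means of 10.96 and 4.51 CPM (edgeR adjusted p = 0.557), and Cux1, the member with most reads, had 672 ± 46.8 and 733 ± 76.3 CPM. Of 61 acrosome genes 12 were tested, with 7 higher, 5 lower and a median of 0.05. Csnk2a2, a kinase subunit needed for sperm head shape, had 63.5 ± 13.9 and 65.0 ± 6.21 CPM. The 14 tested genes of meiotic prophase, 9 of spermatid differentiation and 5 of spermatogonia had medians of 0.06, 0.07 and -0.17, and none passed. Without heterozygous libraries 2 and 3 the medians of the last 2 lists were -0.48 and 0.29.

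Markers of somatic testis cells had few small RNA reads. None of 18 Leydig cell, 23 Sertoli cell or 15 peritubular myoid and endothelial genes had enough reads to be tested. Their summed levels per library were 12.3 to 28.5 CPM, 11.9 to 21.95 CPM and 2.46 to 4.83 CPM. In long RNA the defining Sertoli markers summed to 668 to 735 CPM in heterozygotes and 703 to 826 CPM in homozygotes. Of 19 macrophage and leukocyte genes only Cx3cr1, a chemokine receptor gene, was tested. It had 72, 77 and 110 reads against 38, 39 and 57, a log2 fold change of -0.89 (edgeR adjusted p = 0.557) that was -0.20 without heterozygous libraries 2 and 3.

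Small RNA of genes that overlap precursors was higher about as often as lower. Of the 183 tested, 91 were higher and 92 lower, with a median of -0.01, and none passed. The groups did not overlap for 41 of the 183, and 25 had an unadjusted edgeR p under 0.05. Both are larger shares than the 15.9% and 8.71% over all genes tested. The precursor genes include all of the 25 genes with most reads, so the 2 sets are not alike in depth. No comparison with genes of like depth was made. The range ran from Rplp1, a ribosomal stalk protein, at -1.09 (51.3 and 23.5 CPM) to H1fx, a linker histone, at 0.64 (56.7 and 89.2 CPM), both with an edgeR adjusted p of 0.557. The 117 protein-coding members had a median of -0.07 and the 45 long noncoding members one of 0.09. In bulk tissue, fewer cells of a type and less RNA per cell cannot be told apart.

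The direction of snoRNA and mitochondrial genes depended on the heterozygous libraries used. Among 96 snoRNA and scaRNA genes tested, 85 were higher and 11 lower in homozygotes with all libraries, with a median of 0.39, and none passed. Without heterozygous library 1, all 94 tested were called higher, with a median of 2.33, where 9.26% of all genes were called higher. Without heterozygous libraries 2 and 3, 48 of 111 were called lower and none higher, with a median of -0.85, where 1.36% of all genes were called lower and 0.0865% higher. Snora31 had 3255, 30 and 66 reads in heterozygotes and 1557, 1419 and 1391 in homozygotes. Of the 21 tested genes of the mitochondrial genome, 18 were higher and 3 lower, with a median of 0.46. That median was 1.88 without heterozygous library 1 and -0.54 without libraries 2 and 3. The serine tRNA gene mt-Ts2 had 9535, 189 and 442 reads against 8880, 6391 and 8721, and heterozygous library 1, at 5657 CPM, lay within the homozygous range of 5408 to 8420 CPM. Rpl7a, a ribosomal protein gene, had 2012, 107 and 158 reads against 717, 498 and 644. Its log2 fold change was 0.09 with all libraries, 2.09 without heterozygous library 1 and -1.22 without libraries 2 and 3. Of the 76 ribosomal protein genes, 12 were tested, with 10 lower, 2 higher, a median of -0.14 and none past the threshold. That median was -0.35 without heterozygous library 1 and 0.16 without libraries 2 and 3. Of the genes that overlap precursors, 34 of 183 were called higher and 31 lower without heterozygous library 1, with a median of -0.02. That run called 9.26% of all genes higher and 6.83% lower. Without libraries 2 and 3 the median of the precursor genes was 0.07.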

How the data were processed

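Small RNA was read in 3 heterozygous and 3 homozygous testis libraries, grouped by their titles, and long RNA of the same genotypes gave a second readout. The authors deposited raw read counts, per the file headers made with featureCounts on the GENCODE M12 annotation. Small RNA was counted over exons on the sense strand. Long RNA was counted as fragments over gene bodies on the reverse strand, with 466 piRNA precursors added, and fragments in overlapping features were not counted. The submitters' processing notes name cutadapt 1.18, HISAT2 2.1.0, Bowtie2 2.2.5 and the mm10 and mm9 builds, without roles. Coordinates follow the files and mm10 (GRCm38). Symbols matched 49326 of 49585 gene IDs, and gene classes came from GENCODE M21.

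Counts were filtered with filterByExpr, scaled by TMM and tested with edgeR 4.0.16 (R 4.3.3, quasi-likelihood, Benjamini-Hochberg over all genes, threshold 0.05). All 6 small RNA libraries entered 1 fit, and all 9 long RNA libraries another, 3 wild-type ones included. The SE is the size of the log2 fold change divided by the square root of F. Class shares were compared by exact permutation. Antisense alignment used blastn (BLAST 2.17.0). The scripts were tested on simulated data.

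Depth of 939641 to 1861402 reads limits precision for genes with few reads. The genes, members and 14 lists were chosen with earlier results of these data known. Named were genes past the threshold with a 2-fold change, groups apart and at least 50 reads on average where higher; otherwise the lowest p with 50 reads, up to 10 per direction; the 10 most abundant genes and 5 most abundant miRNA genes; Golga2, Kdelr2, Unc119b, Gm9, Tmem184c, Map7d3, Piwil1, Piwil2, Mov10l1, Mybl1 and Tdrd1; and up to 2 members per list with most reads. Gpd2, Gorab, Rplp1, H1fx, Snora31, Rbbp4, Noct, Zbtb8os, Nom1 and Snord43 were chosen after their values were seen. Alternatives were DESeq2 1.42.0, RLE and no scaling, TMM without precursor genes, other filters, a 1.5-fold limit, a replicate block, each library left out and heterozygous libraries 2 and 3 left out. For class shares they were other denominators and a stricter overlap. Leaving out libraries 2 and 3 in class shares was chosen after seeing the data.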

Additional observations from a re-analysis of the deposited data

How the results depend on the processing

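The number of genes past the threshold, 1 with all libraries, was also 1 with DESeq2, RLE scaling, no scaling, TMM without precursor genes, a mean of at least 10 reads and a 1.5-fold limit. It was 43 with no filter (25 higher, 18 lower; Kdelr2, Slc43a2, Sec62, 4930465K10Rik and mt-Ts2 among them), 67 without heterozygous libraries 2 and 3, and 0 to 617 when single libraries were left out. The run with no filter took in all 18574 genes with a read. There mt-Ts2 passed (edgeR adjusted p = 3.072e-20) at an SE of 0.17, against 1.05 with the filter, though its groups overlap. With the replicate number as a block, the number past the threshold was 0 (236 at an unadjusted p under 0.05). Unc119b was then at -2.56 (edgeR adjusted p = 0.0923). Between libraries of equal number, deviations from the group means correlated at r = -0.16, 0.00 and -0.09 for numbers 1, 2 and 3. With 3 libraries per group the deviations within a group depend on each other, so these values cannot decide whether equal numbers are paired. Unc119b kept its direction in each setting, and its log2 fold change lay between -2.72 and -2.42 with 1 library left out. The difference in the precursor share, -0.93 percentage points, lay between -2.69 and -0.01 with 1 library left out and was 2.61 without heterozygous libraries 2 and 3, and 0.35 over protein-coding and long noncoding counts only. Without those libraries Rpl7a was at -1.22 (adjusted p = 0.000579, 0.09 with all) and mt-Rnr2 at -0.84 (adjusted p = 0.0266, 0.37 with all). A run without heterozygous libraries 2 and 3 leaves 1 heterozygous library, which is assumed to vary like the homozygous ones; the cause of these shifts was not tested. The Map7d3 long RNA call was lost with no scaling too (0.93, adjusted p = 0.14). Depth limits genes with few reads, and the 3 raised in long RNA could not be tested.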
